A study of Mus musculus with 8 samples.

Results

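Flavin monooxygenases are enzymes of the endoplasmic reticulum that bind FAD and use NADPH and molecular oxygen to add an oxygen atom to nitrogen- or sulfur-containing compounds. In liver they stand beside the cytochrome P450 enzymes in the oxidation of drugs, dietary amines and thioethers, but they take their electrons directly from NADPH. The 4 members described here are Fmo1, Fmo2, Fmo4 and Fmo5, which were taken by name, with no threshold on their values, as the rows of the count table whose Ensembl identifiers belong to these symbols. They are 4 of 49671 genes in the table, and all 4 passed the filter on low values (at least 1 CPM, the counts-per-million unit, in at least 2 libraries) that left 13117 genes for testing.

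The data are RNA-seq libraries of whole liver from post weaning C57BL/6 mice, in 4 groups of 2 libraries, formed by sex (male or female) and genotype (WT or NT-KO). NT-KO mice are homozygous for a germline deletion at the start of the coding sequence of Lbr, the gene of the lamin B receptor, which removes the canonical translation start. The allele came from 1 male founder made by CRISPR/Cas9 and backcrossed to C57BL/6N, and it is present in all cells, so that an effect in liver cannot be assigned to hepatocytes. Nothing in the labels states that the 2 libraries of a group came from separate animals, and the p-values below therefore measure only the spread between these libraries, which may be technical.

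The libraries held 45020377 to 64396291 counts in genes, so that 1 count was worth 0.0155 to 0.0222 CPM, and none of the 4 members was near the limit of detection. Lbr itself measured 7.27 ± 1.03 CPM (SD, n = 2) in WT males and 13.2 ± 0.603 in NT-KO males (log2 fold change 0.86, edgeR's adjusted p = 0.167), and 7.19 ± 0.327 in WT females against 13.6 ± 0.688 in NT-KO females (0.91, edgeR's adjusted p = 1). Over both sexes the log2 fold change of Lbr was 0.89 (95% interval 0.61 to 1.16, edgeR's adjusted p = 0.166), and it was not called. The Lbr row counts the whole gene and not the deleted stretch, so it does not check the genotype labels. The hepatocyte markers used as a check of the tissue (8 of 8 detected, among them Alb and Apoa1) summed to between 80990.9 and 116049.2 CPM in every library. The markers of lung epithelium, a tissue rich in Fmo2 in many mammals, summed to 1.47 to 4.41 CPM, and those of adipocytes to 2.83 to 4.89 CPM.

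Fmo1 (ENSMUSG00000040181), Fmo2 (ENSMUSG00000040170) and Fmo4 (ENSMUSG00000026692) are neighbours on mouse chromosome 1, all on the minus strand, in a stretch of 105.5 kb from 162793188 to 162898726 (GRCm38). Within it Fmo4 occupies 162793188 to 162813972, Fmo1 162829561 to 162866610 and Fmo2 162874317 to 162898726. Fmo5 (ENSMUSG00000028088) lies apart, on the plus strand of chromosome 3 from 97628804 to 97655282. No other annotated gene overlaps any of the 4. Of all stretches of 50 bases in the annotated transcripts of Fmo1, 7.02% also occurred in another gene, against 0.434% for Fmo5 and 0 for Fmo2 and Fmo4. Reads from such stretches could be split or dropped, which makes the counts of Fmo1 and Fmo5 less certain. These are shares of stretches and not of reads, so the size of that uncertainty was not measured.

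RefSeq start-site windows were matched for 3 of the 4 members, Fmo2, Fmo4 and Fmo5. The 250 bases before the outer of the 2 annotated RefSeq starts of Fmo2, the member with the largest difference between the sexes below, are shown because they lie wholly outside annotated exons (GRCm38.p6, chr1:162898759-162899008, minus strand).
Fmo2: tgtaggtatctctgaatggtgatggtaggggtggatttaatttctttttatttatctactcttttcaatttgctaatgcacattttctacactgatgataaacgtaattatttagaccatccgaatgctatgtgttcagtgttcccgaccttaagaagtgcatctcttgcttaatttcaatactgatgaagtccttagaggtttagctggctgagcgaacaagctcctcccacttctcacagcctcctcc
No letters are in capitals because none of 5 searched motifs occurred here on either strand. These were the STAT5 motif TTCNNNGAA, which 7.02% of 32851 RefSeq windows of the same length hold, the HNF1 motif GTTAAT (6.43%), the HNF4 motif CAAAGTCCA (0.384%), the FOXA motif TGTTTAC (3.17%) and the HNF6 motif ATTGAT (6.72%). The windows of Fmo4 and Fmo5 held none of them either, but 104 and 215 of their 250 bases lie in annotated exons. The window before the inner Fmo2 start held 1, a FOXA match 28 bases before that start. Of the 250 bases of that window 227 lie in annotated exons, so it is mostly transcribed sequence. These matches describe letters in short windows only.

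All 4 members differed between the sexes, in opposite directions. Fmo1, Fmo2 and Fmo4 were higher in female than in male liver over both genotypes, Fmo2 by the widest margin (6.11-fold), while Fmo5 was 1.60-fold lower in females. In edgeR's quasi-likelihood test over both genotypes, 4 of 4 members passed a false discovery rate (FDR, Benjamini-Hochberg over all 13117 genes) of 0.05, 3 as higher and 1 as lower in females. Of all tested genes 7.84% passed the same threshold, 4.12% as higher and 3.72% as lower in females, and the median log2 fold change over all tested genes was -0.009. Levels below are CPM after scaling each library by its TMM factor, a correction for differences in composition.

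**Figure D1:**
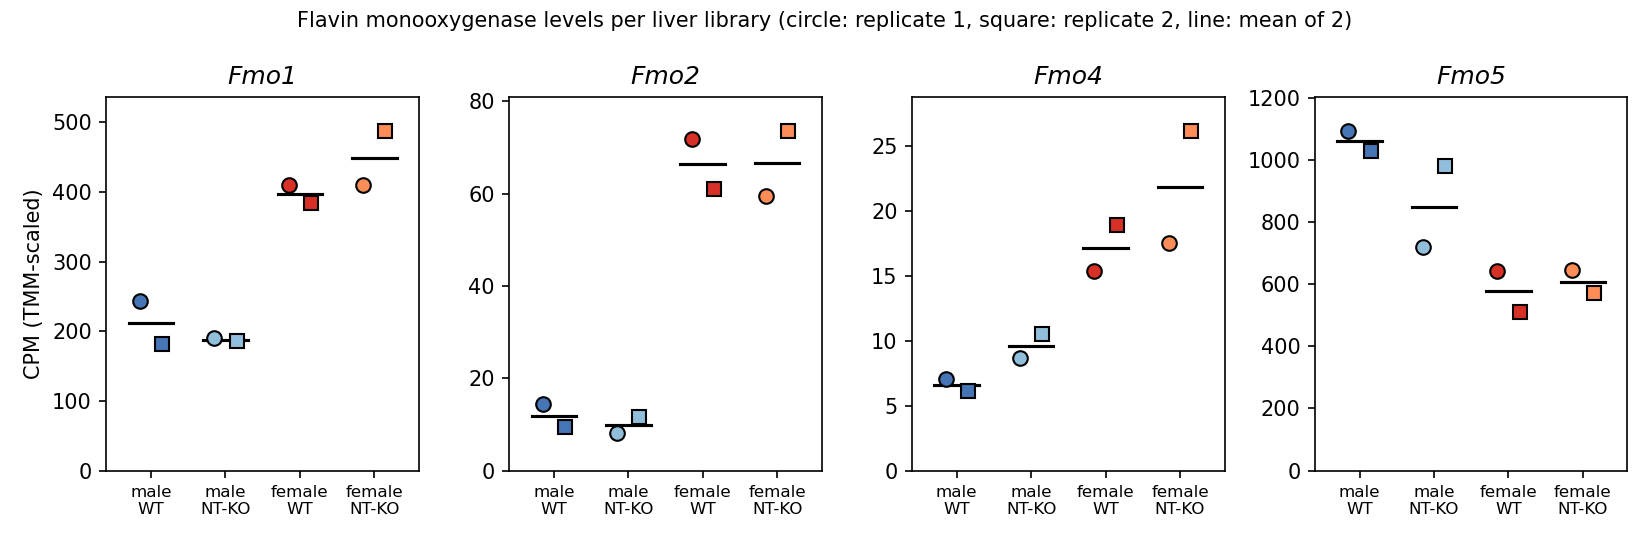
Level of each flavin monooxygenase gene in the 8 liver libraries, in TMM-scaled CPM on linear axes that start at 0, for the 4 groups of sex and genotype. Circles are replicate 1, squares replicate 2 and lines the mean of 2, and every female library lies above every male library for Fmo1, Fmo2 and Fmo4 and below every male library for Fmo5.

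Fmo2, which in many mammals is the main flavin monooxygenase of lung, was a low to moderate transcript in these livers. It measured 14.4 and 9.42 CPM in WT males, 8.20 and 11.7 in NT-KO males, 71.8 and 61.1 in WT females and 59.5 and 73.7 in NT-KO females. The highest male library thus held less than the lowest female library, with the 2 genotypes of each sex intermingled. The log2 fold change of females against males was 2.61 over both genotypes (SE 0.189, 95% interval 2.18 to 3.04, edgeR's adjusted p = 0.000144), rank 52 of all tested genes by p. It was 2.48 in WT (SE 0.265, edgeR's adjusted p = 0.00207) and 2.74 in NT-KO (SE 0.269, edgeR's adjusted p = 0.00168). The counts behind these levels were 399 to 817 in males and 3391 to 4820 in females. The call of Fmo2 as higher in females held under every alternative run, in each genotype and over both.

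Fmo1, which oxygenates a broad range of drugs and also converts hypotaurine to taurine, measured 242.8 and 182.0 CPM in WT males and 190.2 and 186.1 in NT-KO males. The female libraries measured 409.7 and 384.5 CPM in WT and 409.6 and 488.3 in NT-KO. Males and females did not overlap, and each female library held more than 1.5 times the highest male value. Fmo1 was 2.11-fold higher in females over both genotypes (log2 1.08, SE 0.143, 95% interval 0.75 to 1.41, edgeR's adjusted p = 0.00349). It was 1.87-fold higher in WT (edgeR's adjusted p = 0.0404), where 3 of the 4 members were called, all as higher in females, against 6.44% of all tested genes (3.32% as higher). In NT-KO it was 2.39-fold higher (edgeR's adjusted p = 0.0197), and there again the same 3 members were called, against 1.86% of all tested genes (0.877% as higher). The call over both genotypes held under every alternative. The call in WT was lost without any single WT library or either female NT-KO library (adjusted p from 0.0565 to 0.181), and the call in NT-KO without any single NT-KO library (0.0751 to 0.13).

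Fmo4, whose substrates are little characterised, was the member with the fewest counts, 261 to 551 in males and 844 to 1713 in females. It measured 7.09 and 6.16 CPM in WT males and 8.67 and 10.5 in NT-KO males. In female liver it measured 15.4 and 18.9 CPM in WT and 17.5 and 26.2 in NT-KO. Here too the sexes did not overlap. Fmo4 was 2.43-fold higher in females over both genotypes (log2 1.28, SE 0.164, 95% interval 0.91 to 1.66, edgeR's adjusted p = 0.00294), 2.59-fold in WT (edgeR's adjusted p = 0.0179) and 2.28-fold in NT-KO (edgeR's adjusted p = 0.0454). The call over both genotypes held under every alternative. In WT it was lost without male WT replicate 1 (adjusted p = 0.054), male WT replicate 2 (0.0836) or female WT replicate 2 (0.11), and in NT-KO it was lost without any library other than female NT-KO replicate 1 (adjusted p from 0.0619 to 0.234).

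Fmo5, which catalyses Baeyer-Villiger oxidations of ketones and has little activity on the usual substrates of the family, was the only member of the 4 that was lower in females. The male libraries measured 1095.5 and 1028.6 CPM in WT and 720.6 and 980.6 in NT-KO. Its level in the female libraries was 642.4 and 512.2 CPM in WT and 644.5 and 572.3 in NT-KO. Again the sexes did not overlap, though male NT-KO replicate 1 came close to the female range. The log2 fold change was -0.68 over both genotypes (SE 0.156, 95% interval -1.04 to -0.32, edgeR's adjusted p = 0.0372). Within a genotype it was not called by the quasi-likelihood test, at -0.88 in WT (95% interval -1.39 to -0.37, edgeR's adjusted p = 0.056) and -0.48 in NT-KO (95% interval -0.99 to 0.02, edgeR's adjusted p = 0.543). In WT it was called by edgeR's likelihood ratio test (adjusted p = 0.017) and by DESeq2 (adjusted p = 0.00151), and in 5 of 18 alternatives in all. The call over both genotypes was lost in 10 of 16 alternatives, among them each fit that left out 1 library other than male NT-KO replicate 1 (adjusted p up to 0.135).

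For each of the 4 members taken alone, an exact two-sided permutation test of 4 female against 4 male libraries gave p = 0.0286, the smallest value that 4 against 4 can give. Of all tested genes 16.1% had no overlap between the sexes. A test of 2 against 2 libraries within a genotype cannot go below 0.333 by permutation, so that the results within a genotype rest on the edgeR fit across all genes.

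Per length, Fmo5 was the most abundant member in male liver and Fmo2 and Fmo4 were the least abundant in all groups. On the RPKM scale (TMM-scaled CPM divided by the union of annotated exons in kilobases), Fmo5 measured 187.1 ± 8.33 (SD, n = 2) in WT males, 149.9 ± 32.4 in NT-KO males, 101.7 ± 16.2 in WT females and 107.2 ± 9.0 in NT-KO females. Fmo1 followed with 33.7 ± 6.82, 29.8 ± 0.456, 63.0 ± 2.83 and 71.2 ± 8.83 RPKM in the same order. Fmo2 measured 2.12 ± 0.63 and 1.77 ± 0.439 RPKM in WT males and NT-KO, and 11.8 ± 1.35 and 11.9 ± 1.79 in WT females and NT-KO. Fmo4 measured 1.79 ± 0.178 and 2.59 ± 0.35 RPKM in males and 4.63 ± 0.662 and 5.90 ± 1.65 in females.

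The order Fmo5, Fmo1, Fmo2, Fmo4 held for the group means in WT males, WT females and NT-KO females, while in NT-KO males Fmo4 stood above Fmo2. In WT males the difference between Fmo2 and Fmo4 was smaller than the SD of Fmo2. The order of Fmo5 and Fmo1 in females depended on the length used. With the longest annotated transcript (3106 bases for Fmo1 in place of 6304) Fmo1 measured 127.8 ± 5.74 RPKM in WT females and 144.6 ± 17.9 in NT-KO females, above Fmo5 at 111.1 ± 17.7 and 117.1 ± 9.82. In males Fmo5 stood above Fmo1 with either length. By the mean over the 8 libraries on the union length, Fmo5 (136.5 RPKM) stood above 97.3% of tested genes with a length and Fmo1 (49.4 RPKM) above 93.4%, while Fmo2 (6.91 RPKM) stood above 70.2% and Fmo4 (3.73 RPKM) above 56.2%.

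Taken as shares of the summed RPKM of the 4 members (union length), Fmo5 made up 78.9 to 84.9% of the sum in the male libraries and 50.8 to 58.6% in the female libraries. Fmo1 made up 13.5 to 18.7% in males and 33.3 to 39.0% in females. The share of Fmo2 was 0.786 to 1.09% in males and 5.48 to 6.62% in females, and that of Fmo4 was 0.778 to 1.45% and 2.13 to 3.56%. The sum itself overlapped between the sexes, at 160.9 to 236.0 RPKM in males and 167.2 to 198.5 in females. With the longest transcript as length, Fmo5 made up 67.6 to 75.8% of the sum in males and 37.3 to 44.8% in females, and Fmo1 22.4 to 29.8% and 47.3 to 53.3%, so that Fmo1 had the largest share in each female library. The sums overlapped with this length too. The sexes thus differed in the make-up of the 4 transcripts, with no separation in their sum.

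**Figure D2:**
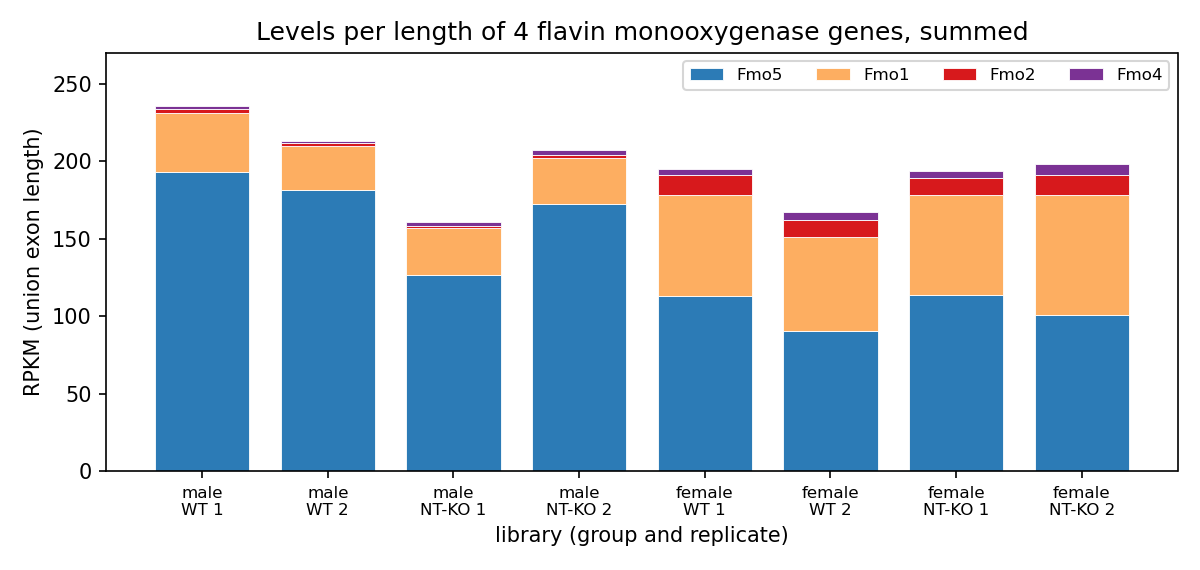
Levels per length of the 4 members, stacked, in TMM-scaled RPKM with the union of annotated exons as length, 1 bar for each of the 8 libraries. Fmo5 makes up 78.9 to 84.9% of the bar in males and 50.8 to 58.6% in females, and the heights overlap between the sexes.

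Some markers of other liver cell types moved with sex in the same direction as Fmo1, Fmo2 and Fmo4. The summed level of 6 stellate cell markers was 145.7 to 197.5 CPM in WT males and 180.8 to 205.4 in NT-KO males. In females it was 239.7 to 261.5 in WT and 231.4 to 291.5 in NT-KO. Ecm1 had the highest level of the 6, at 62.2 to 103 CPM in males and 110.4 to 181.4 in females. Over both genotypes 5 of the 6 were higher in females and 1 lower, with log2 fold changes of 0.83 for Ecm1, 0.01 for Pdgfrb and -0.08 for Reln. The 5 Kupffer cell markers summed to 120.6 to 216.5 CPM in males and 228.4 to 271.8 in females, and the 5 endothelial markers to 93.8 to 142.8 CPM in males and 147.4 to 166 in females. By edgeR's quasi-likelihood test over both genotypes 0 of the 6 stellate, 0 of the 5 Kupffer and 0 of the 5 endothelial markers were called, with 2, 3 and 3 at an unadjusted p under 0.05 and 1, 2 and 1 called by DESeq2, the same numbers as by edgeR's likelihood ratio test. Of the 8 hepatocyte markers 0 were called, with 3 at an unadjusted p under 0.05, 0 by the likelihood ratio test and 1 by DESeq2. Of all tested genes 7.84% were called by the quasi-likelihood test in this comparison. For the sexes, here and below, the share of all tested genes at an unadjusted p under 0.05 is not given. Counts at that threshold therefore cannot be set against a background. The numbers of all tested genes called by the other 2 tests are given in the section on processing. The sum of the 5 blood markers was 370.2 to 947 CPM in males and 170.4 to 320.3 in females, with Hbb-bt and Alas2 called as lower in females. Alas2 measured 90.3 to 167.3 CPM in males and 8.63 to 15.1 in females, while the globin gene Hbb-bs overlapped (134.7 to 390.7 and 79.9 to 146.5). In WT alone 4 of the 5 blood markers were called as lower in females (80%, beside 6.44% of all tested genes). Their log2 fold changes were -3.46 for Alas2, -1.98 for Hba-a1, -1.79 for Hbb-bs and -2 for Hbb-bt. Hba-a2, at -0.67, was not called in WT. In NT-KO alone 1 of the 5 was called (20%, beside 1.86% of all tested genes), Alas2, with a log2 fold change of -2.99. There it was -0.17 for Hba-a1, 0.58 for Hba-a2, -0.28 for Hbb-bs and -0.20 for Hbb-bt, none of them called. The sum of the 5 cholangiocyte markers overlapped between the sexes (26.8 to 49.1 CPM in males, 34.7 to 60.2 in females), with Epcam called as higher in females. Of 4 kidney tubule markers 1 passed the filter, Lrp2, which was called as lower in females and was at most 2.29 CPM in any library. The part of these shifts in the results on the members was not tested, and in whole liver fewer cells of a type and less RNA per cell cannot be told apart.

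The comparison of NT-KO with WT asks whether the deletion in Lbr changes these transcripts in liver. No member was called. In males 0 of 4 members passed edgeR's quasi-likelihood test (0.0152% of all tested genes did), with 0 at an unadjusted p under 0.05 (11.5% of all tested genes) and 0 by DESeq2 or edgeR's likelihood ratio test. In females 0 of 4 passed (0.00762% of all tested genes), again with 0 at an unadjusted p under 0.05 (1.55%) and 0 by the other 2 tests. Over both sexes 0 of 4 passed (0.0152% of all tested genes), with 1 at an unadjusted p under 0.05, Fmo4 (5.42% of all tested genes), and 0 by the other 2 tests. The 3 genotype comparisons share libraries with each other and with the comparisons of the sexes.

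Fmo4 had the largest genotype difference among the 4. Its means were 6.63 ± 0.661 CPM (SD, n = 2) in WT males and 9.58 ± 1.30 in NT-KO males, and 17.2 ± 2.45 in WT females and 21.9 ± 6.13 in NT-KO females. The male groups did not overlap, as was the case for 38.9% of all tested genes in that comparison, and the female groups did. The log2 fold change was 0.53 in males (95% interval 0.00 to 1.06, edgeR's adjusted p = 0.433), 0.35 in females (95% interval -0.17 to 0.87, edgeR's adjusted p = 1) and 0.44 over both sexes (95% interval 0.07 to 0.81, edgeR's adjusted p = 0.866).

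Fmo5 measured 1062.1 ± 47.3 CPM in WT males and 850.6 ± 183.8 in NT-KO males, with no overlap, as for 38.9% of all tested genes. The log2 difference of Fmo5 in males was -0.32 (95% interval -0.83 to 0.19, edgeR's adjusted p = 0.621). In females it measured 577.3 ± 92.1 CPM in WT and 608.4 ± 51.0 in NT-KO, and the difference was 0.08 (95% interval -0.43 to 0.58, edgeR's adjusted p = 1). The 2 male NT-KO libraries differed 1.36-fold from each other, more than the ratio of the male group means. Fmo1 differed by -0.18 on the log2 scale in males (95% interval -0.63 to 0.28, edgeR's adjusted p = 0.791) and by 0.18 in females (95% interval -0.28 to 0.64, edgeR's adjusted p = 1). Fmo2 differed by -0.26 in males (95% interval -0.85 to 0.32, edgeR's adjusted p = 0.744) and by 0.00 in females (95% interval -0.57 to 0.58, edgeR's adjusted p = 1). Over both sexes the intervals allowed log2 differences of -0.32 to 0.33 for Fmo1, -0.54 to 0.28 for Fmo2 and -0.48 to 0.24 for Fmo5. The small male differences of Fmo1 and Fmo2 turned to 0.05 and 0.08 without male WT replicate 1.

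**Figure D3:**
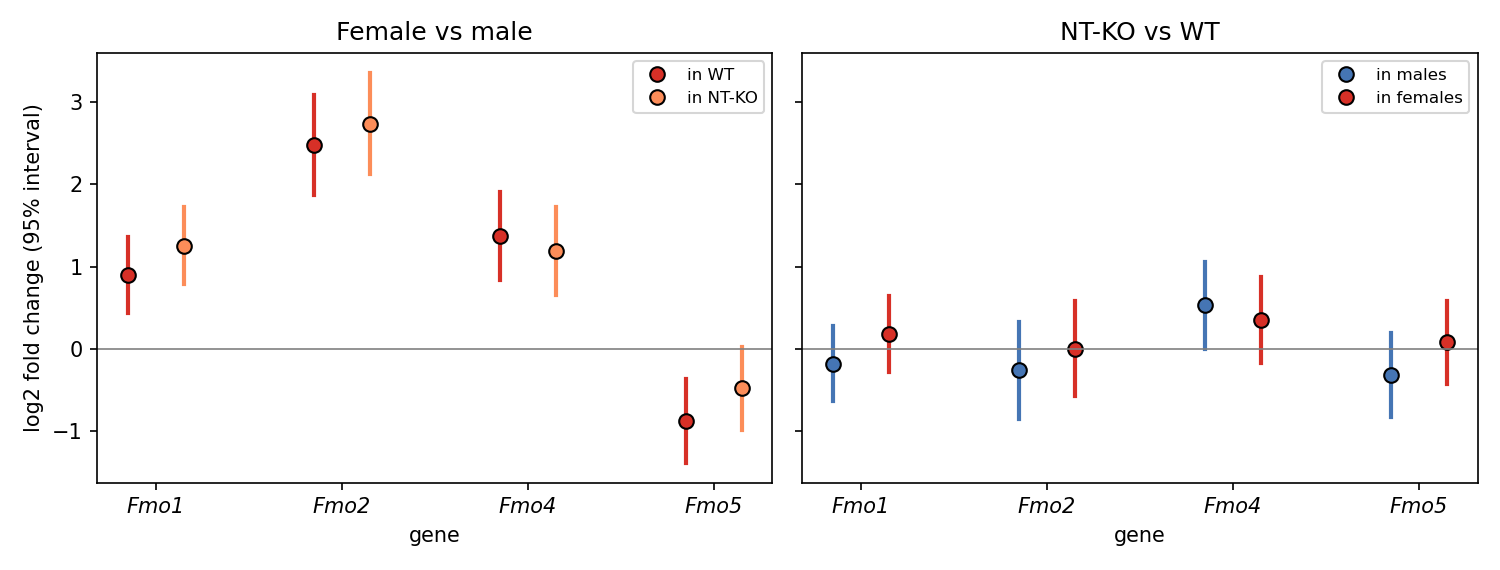
Log2 fold changes of the 4 members with 95% intervals from edgeR's quasi-likelihood fit, on the left for females against males within each genotype and on the right for NT-KO against WT within each sex. The intervals of Fmo1, Fmo2 and Fmo4 lie above 0 for both comparisons of the sexes, and no genotype difference was called.

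The effect of genotype was also compared between the sexes with an interaction term. The female effect minus the male effect was 0.35 on the log2 scale for Fmo1 (95% interval -0.30 to 1.00), 0.27 for Fmo2 (-0.55 to 1.09), -0.18 for Fmo4 (-0.92 to 0.56) and 0.40 for Fmo5 (-0.32 to 1.11). None was called (0 of 4 by edgeR's quasi-likelihood test, 0 at an unadjusted p under 0.05 and 0 by the other 2 tests, against 0.0152%, and 7.2% at an unadjusted p under 0.05, of all tested genes), with edgeR's adjusted p from 0.791 to 0.914.

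The genes beside the members were examined after the members' values were seen. Of 8 tested genes outside the family within 1 Mb of the chromosome 1 members, 0 were called between the sexes over both genotypes by edgeR's quasi-likelihood test (2 at an unadjusted p under 0.05, 0 by the likelihood ratio test and 1 by DESeq2), with log2 fold changes from -0.60 to 0.49. Of 19 tested genes within 1 Mb of Fmo5, 1 was called, Hsd3b5, a steroid dehydrogenase with a log2 fold change of -4.51 (lower in females), a share of 5.26% beside 7.84% of all tested genes. Of these 19 genes 3 had an unadjusted p under 0.05, and the likelihood ratio test and DESeq2 each called 3. Between the genotypes, over both sexes, 0 neighbours of either locus were called by any of the 3 tests, with 1 beside the chromosome 1 members and 0 beside Fmo5 at an unadjusted p under 0.05.

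The other genes whose level over the 8 libraries was most like that of a member were chosen by Pearson r on log2 CPM among tested protein-coding genes that averaged 5 CPM or more. The 8 libraries fall into the 2 sexes, so these values mainly describe which genes separate the sexes in the same way. For Fmo2 they were Cyp2c40 (r = 0.987) and Cyp2a4 (0.981), 2 cytochrome P450 genes, Cers6 (0.981), a ceramide synthase, Hao2 (0.980), a hydroxyacid oxidase, and Rmnd1 (0.980). For Fmo1 they were Idh2 (0.977), the mitochondrial NADP-dependent isocitrate dehydrogenase, Rmnd1 (0.976), Pcsk5 (0.969), Cyp2a4 (0.968) and Cers6 (0.966). Fmo1 and Fmo2 thus had 3 of these 5 genes in common, and their own r with each other was 0.98. Fmo4 was closest to Abcb1a (0.990), a drug efflux pump, Aldh3a2 (0.985), a fatty aldehyde dehydrogenase, 5031439G07Rik (0.984), Gbp2 (0.978) and Serpinb1a (0.978). Fmo5 was closest to Hs3st3b1 (0.982), Nucks1 (0.975), Lrrfip1 (0.964), Hao1 (0.963), the glycolate oxidase of liver, and Erc1 (0.962). The order depended on the measure. By Spearman's rho these genes ranked from 1 (Aldh3a2 for Fmo4) to 357 (Cyp2a4 for Fmo2) among the 8898 genes compared.

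Genes that work beside flavin monooxygenases were followed in 6 lists, 64 tested genes in all. Of these, 6 were called between the sexes over both genotypes (edgeR's quasi-likelihood test, FDR of 0.05), 3 higher and 3 lower in females, a share of 9.38% beside 7.84% of all tested genes. The likelihood ratio test called 11 of them and DESeq2 15. The sexes did not overlap in 13 of the 64 (20.3%), against 16.1% of all tested genes. Among 11 genes of NADPH supply and microsomal electron transfer 0 were called (1 at an unadjusted p under 0.05, and 1 each by the likelihood ratio test and DESeq2), with 8 higher and 3 lower in females and a median log2 fold change of 0.06. The largest were H6pd, the hexose-6-phosphate dehydrogenase of the endoplasmic reticulum, at -0.56 (edgeR's adjusted p = 0.0611), and Por, the P450 reductase, at 0.35 (edgeR's adjusted p = 0.214). Among 4 tested genes of FAD and riboflavin supply 1 was called, Rfk, the riboflavin kinase, at 0.42 (SE 0.0991, edgeR's adjusted p = 0.0419). Rfk measured 32.7 to 39.4 CPM in males and 45.1 to 51.7 in females.

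Among 12 genes of taurine and sulfur amino acid metabolism 1 was called over both genotypes (8.33%, beside 7.84% of all tested genes). This was Csad, which makes hypotaurine, the substrate that Fmo1 oxygenates, and it was lower in females by a log2 fold change of -1.76 (SE 0.281, edgeR's adjusted p = 0.00883). Its levels were 92.6 to 386.2 CPM in males and 34.4 to 84.5 in females. The list as a whole had 7 genes higher and 5 lower in females, with a median of 0.06. In WT alone Cdo1, the cysteine dioxygenase that feeds Csad, was called as higher in females (log2 0.80, edgeR's adjusted p = 0.0385), and in NT-KO alone Csad was called as lower (-2.57, edgeR's adjusted p = 0.0191). Among 10 genes of choline and methylamine metabolism 0 were called (3 at an unadjusted p under 0.05, 0 by the likelihood ratio test and 2 by DESeq2), with 6 higher and 4 lower and a median of 0.08. The largest differences there were Chka, a choline kinase, at -0.76 (edgeR's adjusted p = 0.159) and Sardh, the sarcosine dehydrogenase, at 0.49 (edgeR's adjusted p = 0.149).

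The list of other flavoenzymes, among them amine and aldehyde oxidases and quinone reductases, had 4 of 13 called over both genotypes, 2 in each direction. That share is 30.8%, beside 7.84% of all tested genes. Nqo1, a quinone reductase, was higher in females (log2 1.76, edgeR's adjusted p = 0.00378), at 1.75 to 6.21 CPM in males and 9.29 to 13.7 in females. Maob, which oxidises amines, was also higher (0.89, edgeR's adjusted p = 0.011). The aldehyde oxidases Aox3 (log2 -2.05, edgeR's adjusted p = 0.000726) and Aox1 (edgeR's adjusted p = 0.00594) were lower in females. Aox3 measured 521.9 to 904.8 CPM in males and 130.7 to 211.5 in females, and Aox1 61.3 to 131.9 and 39.8 to 52.7. The list median was 0.25, with 9 higher and 4 lower. Maob, Nqo1 and Aox3 were also called in WT alone, and Aox1 and Aox3 in NT-KO alone. Among 14 transcription factors linked to these genes 0 were called (4 at an unadjusted p under 0.05, 1 by the likelihood ratio test and 2 by DESeq2), with 5 higher and 9 lower in females and a median of -0.10. Nr1i3, the constitutive androstane receptor, had the largest difference (0.97, edgeR's adjusted p = 0.0602), followed by Foxa1 (-0.56, edgeR's adjusted p = 0.225).

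**Figure D4:**
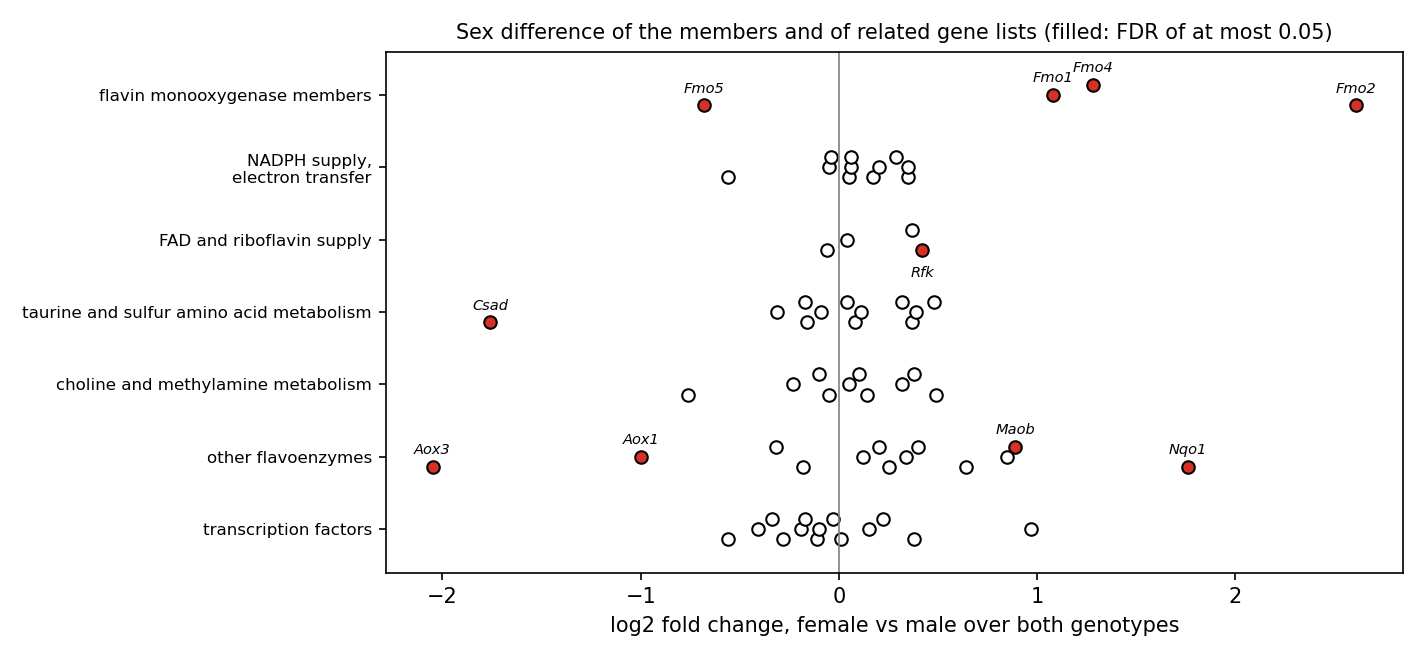
Log2 fold change of females against males over both genotypes for the members and the genes of the 6 lists, 1 circle a gene, filled where edgeR's FDR was at most 0.05 (named genes), with the vertical spread in a row only for legibility. Fmo1, Fmo2 and Fmo4 lie to the right of 0 and Fmo5 to the left, and 6 listed genes are filled.

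Between the genotypes 0 of the 64 listed genes were called by edgeR's quasi-likelihood test in any comparison. In males 9 of the 64 (14.1%, beside 11.5% of all tested genes) had an unadjusted p under 0.05. There edgeR's likelihood ratio test called 1, Csad, and DESeq2 called 3, Csad, Cdo1 and Aox1. In females none had an unadjusted p under 0.05, with 0 called by either of the other tests, and over both sexes 4 did (6.25%, beside 5.42% of all tested genes), again with 0 called. In the interaction of genotype and sex 4 did (6.25%, beside 7.2%), with 0 called by either of the other tests. Over both sexes the median log2 fold change was 0.18 for NADPH supply, 0.01 for FAD supply, 0.18 for taurine and sulfur metabolism, 0.12 for choline metabolism, 0.13 for other flavoenzymes and -0.03 for transcription factors, beside 0.004 for all tested genes.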

How the data were processed

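The authors trimmed reads with cutadapt, aligned them to GRCm38 with STAR 2.6.1a and counted reads per Ensembl gene with featureCounts. The deposited table holds these raw counts for 8 liver libraries. Strand and multi-mapping settings are not given in the sources used here. Members were matched by Ensembl identifier to GENCODE vM21 (GRCm38). rRNA, miRNA and mitochondrial genes and genes under 1 CPM in all but 1 library were left out, leaving 13117. edgeR 4.0.16 (R 4.3.3) fitted all 8 libraries with 4 group means, TMM scaling and quasi-likelihood F-tests, called at an FDR of at most 0.05. Standard errors are the log2 fold change over the square root of F, and intervals are 95% from the same fit. Alternatives included DESeq2 1.42.0. The fit was tested on simulated counts. Named are the members, Lbr, called genes of each list or otherwise its 2 largest, and 5 genes most like each member. Members, gene lists and tests were chosen with earlier results of these data known. Library totals were 45020377 to 64396291 counts, and having only 2 libraries a group limits the precision.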

Additional observations from a re-analysis of the deposited data

How the results depend on the processing

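Over both genotypes, the calls of Fmo1 (log2 fold change 0.98 to 1.21), Fmo2 (2.47 to 2.78) and Fmo4 (1.12 to 1.41) held in all 16 alternatives, and that of Fmo5 in 6 (-0.78 to -0.55). Members called numbered 3 there with library size only, with the replicate block and with an absolute log2 fold change over 1, and 3 to 4 without 1 library. In WT the main 3 became 4 by likelihood ratio, DESeq2 and no filter beyond 1 count, 2 with the block, within the 4 libraries and with a log2 change over 1, and 1 to 4 without 1 library. In NT-KO they became 2 within the 4 libraries and 1 to 2 without 1 library. No genotype comparison called a member in any alternative.

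Counts of all genes called moved more. By likelihood ratio, DESeq2 and no filter they were, from a main count of 2 in males for genotype, 254, 308 and 917; in females (1) 11, 5 and 194; over both sexes (2) 51, 62 and 445; and for the interaction (2) 46, 62 and 552. For sex they were 1707, 1802 and 2664 in WT (845), 467, 480 and 976 in NT-KO (244), and 1757, 1849 and 2722 over both genotypes (1028). Library size only gave 1316 in WT, a log2 change over 1 gave 550 over both genotypes, and in females the group-mean filter and the 4 libraries alone gave 0 for genotype. Without 1 library the counts were 2 to 27, 0 to 0, 0 to 9 and 1 to 7 for genotype and the interaction, and 180 to 1149, 112 to 234 and 464 to 1205 for sex. The cause was not tested.

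Small uncalled values changed sign without 1 library. In males Fmo1 ranged from -0.37 to 0.05 and Fmo2 from -0.55 to 0.08 (both above 0 without male WT replicate 1). In females Fmo5 ranged from -0.08 (without female WT replicate 2) to 0.25, with -0.01 without female NT-KO replicate 1. Over both sexes Fmo2 ranged from -0.27 to 0.04, and its interaction from -0.07 to 0.56 (sign changes without male WT replicate 1). The interaction of Fmo4 ranged from -0.5 to 0.08 (above 0 without female NT-KO replicate 1).

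Deviations of same-numbered replicates correlated from -0.181 to 0.209 between groups, and the main fit used no replicate block. These values do not settle whether same-numbered libraries shared a factor. With the replicate block, 680 genes were called for sex in WT, 208 in NT-KO and 946 over both genotypes, with Fmo1 in WT at an adjusted p of 0.0558 and Fmo5 over both at 0.0554 in edgeR. A crossed pairing in WT, chosen after seeing the data, called 1157 genes and 2 members.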

Other observations

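Among the 64 listed genes, Csad had the largest genotype difference in males (log2 fold change 1.62). Csad measured 136.8 and 92.6 CPM in WT males and 318 and 386.2 in NT-KO males, with no overlap, but 65.2 and 53.7 in WT females against 34.4 and 84.5 in NT-KO females. Cdo1 measured 700.2 and 675.2 CPM in WT males and 1133 and 1038.9 in NT-KO males, and 1035.3 to 1205.1 in the 4 female libraries. Aox1 measured 86.9 and 61.3 CPM in WT males and 122.7 and 131.9 in NT-KO males. In males the adjusted p by edgeR's quasi-likelihood test was 0.228 for Csad and 0.246 for Cdo1 and Aox1. By edgeR's likelihood ratio test it was 0.0117, 0.146 and 0.0736, and by DESeq2 0.000752, 0.00824 and 0.0376, in the order Csad, Cdo1, Aox1. These calls thus depend on the test, and 38.9% of all tested genes had no overlap between the male groups. These 3 genes were singled out after their values were seen.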
